A study of Mus musculus with 9 samples.

Results

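The genes described are 10 enzymes that remove superoxide and peroxides: the peroxiredoxins Prdx1, Prdx2, Prdx4, Prdx5 and Prdx6, the glutathione peroxidases Gpx1 and Gpx4, the superoxide dismutases Sod1 and Sod2, and catalase, Cat. They were chosen by name for a shared function, with earlier results of these data known, and they leave out some members of their families. All 10 were found among the 22036 genes of the deposited table and among the 14955 genes tested. Their RNA was sequenced from microglia, which are macrophages that live in brain tissue, after flow cytometric sorting. The mice were female, wild-type and of strain C57BL/6, and their age was 6 months in the young, 15 months in the middle-aged and 23 months in the old group. Each age had 3 libraries, 9 in all, and each library pooled sorted cells of 3 mice, so values of single animals cannot be seen. No treatment or altered gene is given for any group, and the labels of the 3 groups differ in age alone.

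Superoxide is turned into hydrogen peroxide by superoxide dismutases, SOD1 in the cytosol and SOD2 in the mitochondrial matrix. The peroxide is then removed by catalase in peroxisomes, by glutathione peroxidases, which spend glutathione and carry a selenocysteine in the active site, or by peroxiredoxins, most of which are recycled by thioredoxin. Microglia make superoxide themselves, through the phagocyte NADPH oxidase, and several of these enzyme genes are known targets of the transcription factor NRF2, which binds antioxidant response elements.

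The promoters of 4 of these genes are shown because they set the genes whose RNA changed most beside genes whose RNA changed little. Prdx1 and Gpx1 were the 2 genes that passed the test in old against young microglia, Sod1 is the other gene whose promoter holds the searched element, and Cat had the smallest change of the 10. Each sequence is RefSeq, build GRCm38.p6, and runs 5′ to 3′ on the gene's own strand from 250 bases before the RefSeq transcription start to 50 after it. The windows are chr4:116685349-116685648 on the plus strand for Prdx1, chr9:108338830-108339129 on the plus strand for Gpx1, chr16:90220512-90220811 on the plus strand for Sod1 and chr2:103485104-103485403 on the minus strand for Cat. The genes themselves span chr4:116685544-116700822 (Prdx1), chr9:108338903-108340343 (Gpx1), chr16:90220754-90226329 (Sod1) and chr2:103453849-103485160 (Cat) in GENCODE on GRCm38, so each window covers the region around the first exon. Capitals mark matches to the core of the antioxidant response element, TGACNNNGC, or to the AP-1 site, TGANTCA, where N is any base, searched on both strands.
Prdx1 promoter: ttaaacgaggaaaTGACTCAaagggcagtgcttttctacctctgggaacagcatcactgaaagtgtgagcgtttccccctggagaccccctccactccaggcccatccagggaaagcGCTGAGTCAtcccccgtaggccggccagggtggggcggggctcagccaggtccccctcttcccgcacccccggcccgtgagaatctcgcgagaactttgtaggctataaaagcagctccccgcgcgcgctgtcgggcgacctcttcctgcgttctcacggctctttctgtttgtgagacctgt
Gpx1 promoter: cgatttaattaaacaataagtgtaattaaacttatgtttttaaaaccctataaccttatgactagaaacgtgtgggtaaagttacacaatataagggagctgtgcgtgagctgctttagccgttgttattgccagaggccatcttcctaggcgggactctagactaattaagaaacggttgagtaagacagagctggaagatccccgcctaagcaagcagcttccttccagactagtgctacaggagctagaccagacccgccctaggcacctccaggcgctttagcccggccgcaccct
Sod1 promoter: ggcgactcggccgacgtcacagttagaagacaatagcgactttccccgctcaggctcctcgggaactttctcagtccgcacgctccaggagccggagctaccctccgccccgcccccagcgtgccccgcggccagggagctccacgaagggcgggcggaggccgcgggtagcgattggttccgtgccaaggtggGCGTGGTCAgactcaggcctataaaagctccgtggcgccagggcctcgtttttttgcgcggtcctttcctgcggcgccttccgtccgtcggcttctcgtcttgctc
Cat promoter: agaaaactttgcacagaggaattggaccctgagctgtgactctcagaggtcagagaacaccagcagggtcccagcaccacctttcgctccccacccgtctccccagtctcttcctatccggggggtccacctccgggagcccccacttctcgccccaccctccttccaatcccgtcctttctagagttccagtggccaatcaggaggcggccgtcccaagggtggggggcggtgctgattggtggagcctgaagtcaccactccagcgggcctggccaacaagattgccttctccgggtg
The response element core was found in the Prdx1 promoter, as GCTGAGTCA starting 133 bases before the transcription start, and in the Sod1 promoter, as GCGTGGTCA starting 56 bases before it, both on the opposite strand to the one printed. The AP-1 site was found among these genes in Prdx1 alone, at 237 and at 131 bases before the start, and the second match lies inside the response element match. Of all 32851 promoters in the RefSeq table, 12.4% held the core and 7.81% held the AP-1 site, so both are common letters in windows of this length. Promoters of all genes but Prdx6, 9 of 10, matched by symbol, in 12 windows, and 2 of these 12 held the core. A match in the letters is a description of the sequence and no binding was measured.

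Expression was given as normalized values on a log2 scale whose transformation is not stated, and folds and shares below were taken on that scale by raising 2 to the value. In young, middle-aged and old libraries, markers that define microglia were abundant throughout: Tmem119 averaged 15.41, Cx3cr1 18.37 and Csf1r 18.78 on that scale, and the 15 microglial markers found held 4.31% to 4.75% of the summed normalized values in young, 3.71% to 4.13% in middle-aged and 3.61% to 4.03% in old libraries. Every young library was above every older one in this share. Neutrophil markers were also high, with Ngp at 17.58 and Ltf at 16.54 on average, and their 14 genes held 0.648% to 1.06% of these sums in young, 0.960% to 2.00% in middle-aged and 0.509% to 1.04% in old libraries. Markers of 12 monocyte genes held 0.152% to 0.188% in young, 0.166% to 0.283% in middle-aged and 0.162% to 0.225% in old libraries, and red cell markers at most 0.00394% in any library. One old library, replicate 3, stood apart on the first principal component, at 29.9 against -14.4 to 5.90 for the other 8 libraries. In such sorted pools, fewer cells of a type and less RNA per cell cannot be told apart.

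At 23 months most of these genes were listed higher than at 6 months, and few passed the test by themselves. In old against young libraries Prdx1 and Gpx1 were higher and passed the test, 2 of 10 genes, against 2% of all genes tested that were called in either direction and 1.7% called higher. All 10 genes had a positive log2 change, against 47.4% of all genes, and their median change was 0.30, against -0.01 over all genes. Of the 4 other tested members of the same families, 2 had a positive change, and their median was 0.04. These 4 were Prdx3 at 0.19, Gpx7 at 0.10, Gpx3 at -0.07 and Sod3 at -0.02, and none was called. Sod3, at 3.55 on average, lay near the filter on low values. The rise is a result for the 10 chosen genes, and 4 others are too few to tell whether their families share it. The old and young libraries did not overlap, with old higher, for 6 genes (Prdx1, Prdx2, Prdx4, Prdx5, Gpx1 and Sod2), against 12.2% of all genes. At an unadjusted p under 0.05 there were 7 of 10, against 16.8% of all genes. The test was limma's moderated test with Benjamini-Hochberg adjustment over all 14955 genes, and a call means an adjusted p under 0.05.

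**Figure D1:**
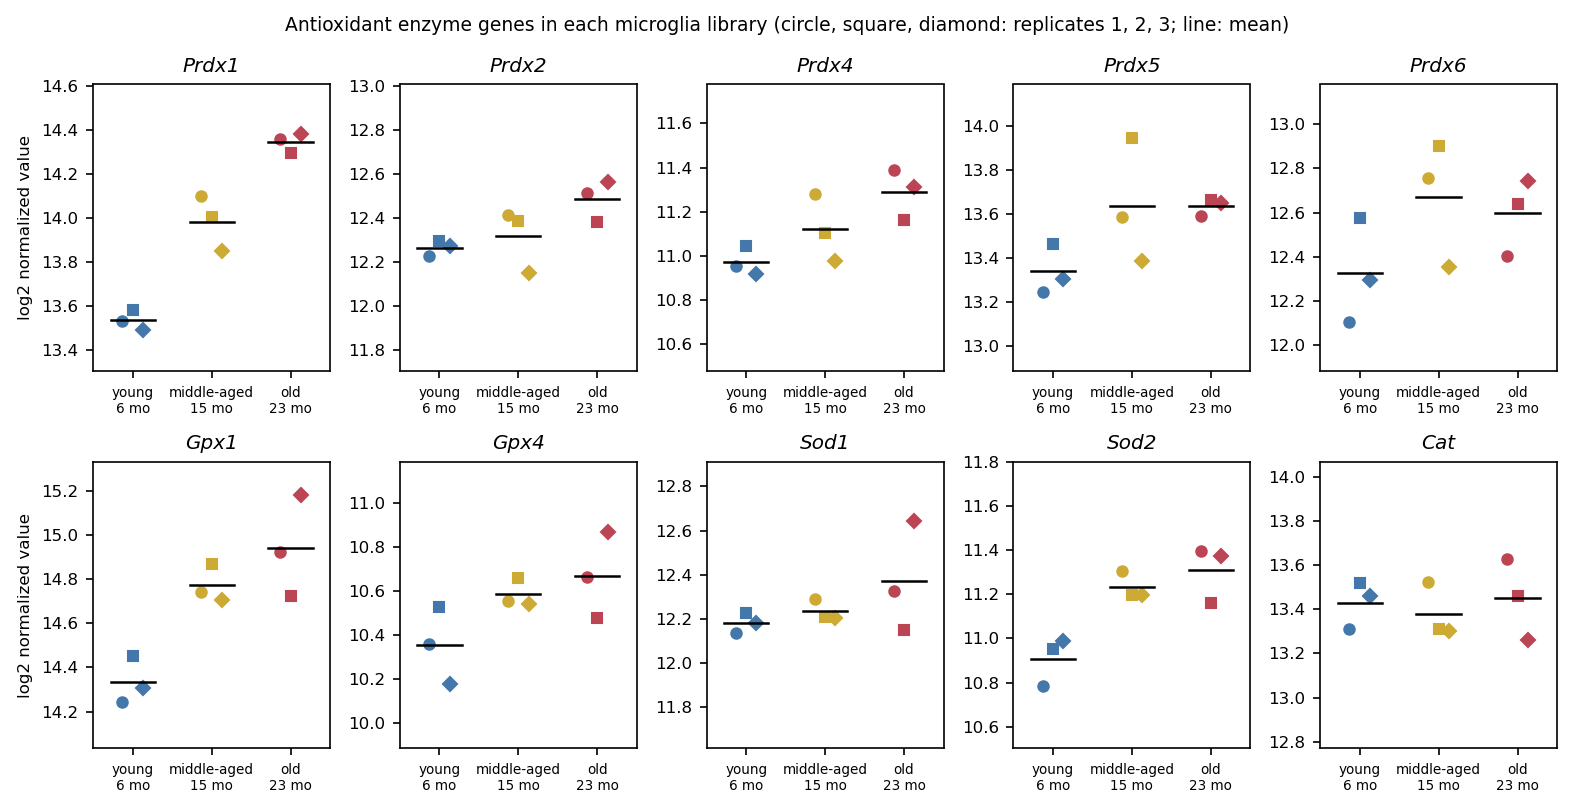
Log2 normalized value of each of the 10 genes in each library, by age from young (6 months) to old (23 months). Points are libraries, with replicates 1, 2 and 3 as circle, square and diamond, lines are means of 3 libraries, and each panel spans the same height on the log2 scale. Prdx1 lies at 13.49 to 13.58 in young, 13.85 to 14.10 in middle-aged and 14.30 to 14.38 in old libraries, with no overlap between ages, while Cat overlaps at all ages.

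Prdx1, a cytosolic peroxiredoxin that is recycled by thioredoxin, changed most. It stood at 13.53, 13.58 and 13.49 in the young libraries, at 14.10, 14.00 and 13.85 in the middle-aged libraries and at 14.36, 14.30 and 14.38 in the old libraries. The 3 ages did not overlap, and every library of an older group was above every library of a younger one. Prdx1 was 1.75-fold higher in old than in young microglia, a log2 change of 0.81 ± 0.09 (SE, n = 3 each, 95% interval 0.62 to 1.00, limma adjusted p = 0.000862). It was the 1 gene of the 10 that differed among the 3 ages in the F test (adjusted p = 0.00313), against 0.836% of all genes. The call in old against young held without any single library, with log2 changes of 0.79 to 0.83.

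The Prdx1 difference was divided between the intervals before and after 15 months. The log2 change was 0.45 ± 0.09 in middle-aged against young libraries (SE, n = 3 each, limma adjusted p = 0.101) and 0.36 ± 0.09 in old against middle-aged libraries (limma adjusted p = 0.188). Neither interval passed the test by itself. The change after 15 months minus the change before it was -0.09 ± 0.15 on the log2 scale, with a 95% interval from -0.41 to 0.24, so a difference between the intervals was not resolved. In the authors' deposited table Prdx1 was called in all 3 comparisons, with adjusted p-values of 2.18e-25 for old against young, 0.000410 for middle-aged against young and 0.0389 for old against middle-aged.

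The other peroxiredoxins had smaller changes than Prdx1, and none of the 4 was called. Prdx2, its close cytosolic relative, which is abundant in red blood cells, stood at 12.23, 12.30 and 12.27 in the young libraries, at 12.42, 12.39 and 12.15 in the middle-aged libraries and at 12.51, 12.38 and 12.56 in the old libraries. Its log2 change in old against young libraries was 0.22 ± 0.10 (SE, n = 3 each, limma adjusted p = 0.287). The 3 old libraries were above the 3 young ones, but one middle-aged library was below both groups.

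Because both genes were read from the same libraries, their difference within each library removes what a library's scale shares between them. Prdx1 minus Prdx2 averaged 1.27 ± 0.05 on the log2 scale in young, 1.67 ± 0.04 in middle-aged and 1.86 ± 0.05 in old libraries (SD, n = 3 each). The 3 ages did not overlap in this difference. It was 0.59 larger in old than in young libraries, 0.39 larger in middle-aged than in young and 0.19 larger in old than in middle-aged, each with an exact two-sided permutation p of 0.1, the smallest that 3 against 3 libraries allow. The difference within libraries had the same order as Prdx1 itself. Since Prdx1 already had no overlap between ages and Prdx2 changed less, this order largely follows from Prdx1. It is a description and no separate support.

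**Figure D2:**
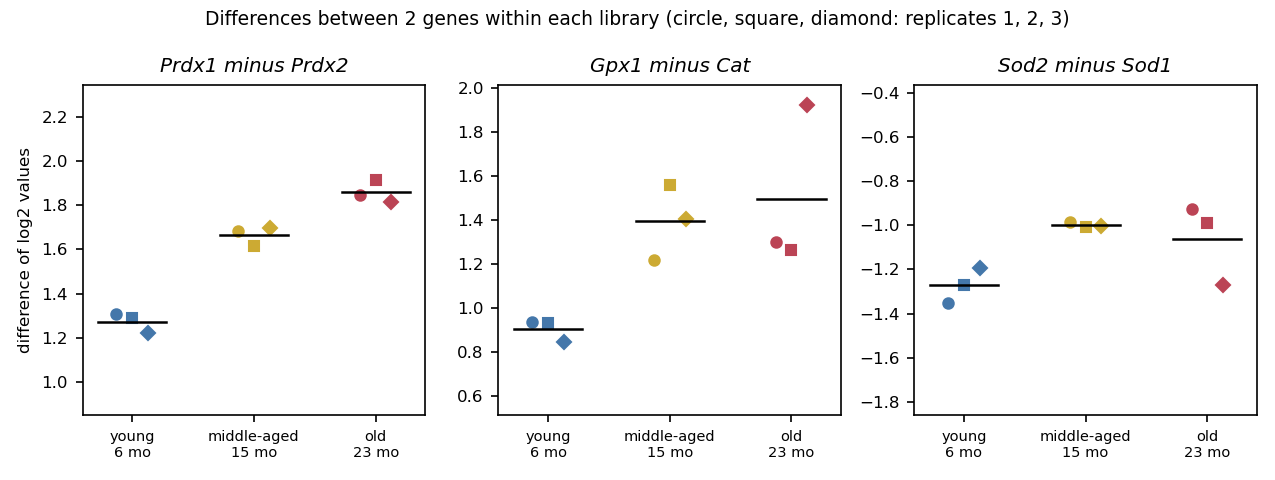
Difference of the log2 values of 2 genes within each library, by age from young to old, with replicates 1, 2 and 3 as circle, square and diamond and lines as means of 3 libraries. Prdx1 minus Prdx2 has means of 1.27, 1.67 and 1.86 with no overlap, Gpx1 minus Cat has one high old library at 1.92, and Sod2 minus Sod1 is at -1.06 on average in old and -1.27 in young libraries, which overlap.

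Prdx4, the peroxiredoxin of the endoplasmic reticulum, stood at 10.95, 11.05 and 10.92 in the young libraries, at 11.28, 11.11 and 10.98 in the middle-aged libraries and at 11.39, 11.16 and 11.31 in the old libraries. Its change in old against young libraries, 0.32 ± 0.11 on the log2 scale (SE, n = 3 each), did not pass the test (limma adjusted p = 0.172). The old and young groups did not overlap, and the middle-aged libraries lay across both.

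Prdx5, found in mitochondria, peroxisomes and cytosol, stood at 13.25, 13.47 and 13.30 in the young libraries, at 13.58, 13.94 and 13.38 in the middle-aged libraries and at 13.59, 13.66 and 13.65 in the old libraries. The middle-aged libraries were the most scattered and held the highest value of all, in replicate 2. The log2 change was 0.30 ± 0.13 in both old against young (limma adjusted p = 0.284) and middle-aged against young libraries (limma adjusted p = 0.419), and close to 0 in old against middle-aged libraries, where it was -0.003 with a 95% interval from -0.29 to 0.28. Prdx5 and Trmt112, which lies on the opposite strand, share 409 exon bases, 28.3% of the exon bases of Prdx5, and the counting is not stated to use strand. Trmt112 itself averaged 9.03 and had a log2 change of 0.07 ± 0.09 in old against young libraries (limma adjusted p = 0.734).

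Prdx6, which has a single catalytic cysteine, is recycled by glutathione and also acts as a phospholipase, stood at 12.11, 12.58 and 12.29 in the young libraries, at 12.75, 12.90 and 12.35 in the middle-aged libraries and at 12.40, 12.64 and 12.75 in the old libraries. All 3 ages overlapped. The log2 change was 0.27 ± 0.16 in old against young (limma adjusted p = 0.444) and 0.34 ± 0.16 in middle-aged against young libraries (limma adjusted p = 0.467). The highest libraries of both Prdx5 and Prdx6 were middle-aged replicate 2, which also had the highest sum of neutrophil markers, 2.00% of the summed normalized values, and of monocyte markers, 0.283%; the part of these cells in the result was not tested.

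Gpx1, the most abundant glutathione peroxidase in most cells, was the second gene to pass the test. It stood at 14.25, 14.45 and 14.31 in the young libraries, at 14.74, 14.87 and 14.70 in the middle-aged libraries and at 14.93, 14.72 and 15.18 in the old libraries. The young libraries were below all others, while middle-aged and old libraries overlapped. Gpx1 was 1.53-fold higher in old than in young microglia, a log2 change of 0.61 ± 0.12 (SE, n = 3 each, 95% interval 0.35 to 0.86, limma adjusted p = 0.0290).

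The call of Gpx1 depended on single libraries. It was lost without young replicate 1 (adjusted p = 0.118), young replicate 2 (0.0543), young replicate 3 (0.152), old replicate 1 (0.0787) or old replicate 3 (0.0520), and was kept in the other 4 fits that leave out 1 library. The log2 change stayed between 0.49 and 0.72 in all 9 of these fits. Its lowest value came without old replicate 3, the library that stood apart and had the highest Gpx1 value.

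Most of the Gpx1 difference lay before 15 months in level, although neither interval passed the test. The log2 change was 0.44 ± 0.12 in middle-aged against young libraries (SE, n = 3 each, limma adjusted p = 0.205) and 0.17 ± 0.12 in old against middle-aged libraries (limma adjusted p = 0.638). The change after 15 months minus the change before it was -0.27 ± 0.20, with a 95% interval from -0.71 to 0.17 that includes 0. In the authors' deposited table Gpx1 was called in old against young, with an adjusted p of 0.000494, and in middle-aged against young, with an adjusted p of 0.000919, but not in old against middle-aged, with an adjusted p of 0.815.

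Gpx4, which reduces lipid hydroperoxides in membranes and protects cells from ferroptosis, stood at 10.36, 10.53 and 10.18 in the young libraries, at 10.55, 10.66 and 10.54 in the middle-aged libraries and at 10.66, 10.48 and 10.87 in the old libraries. The middle-aged libraries were all above the young ones, but old replicate 2 was not. The log2 change was 0.31 ± 0.13 in old against young libraries (SE, n = 3 each, limma adjusted p = 0.243) and 0.23 ± 0.13 in middle-aged against young libraries (limma adjusted p = 0.548).

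The values of Gpx4 may not be those of the gene alone. Its near-identical copy Gpx4-ps2 shares 762 aligned bases at 99.7% identity, and this copy was listed higher than Gpx4 itself, at 11.81 against 10.54 on average. Gpx4 held only 27.5% to 30.6% of the sum of the 2 in any library, so reads of either may have been counted for the other. Summed within each library, Gpx4 and Gpx4-ps2 averaged 12.46 ± 0.15 in old and 12.11 ± 0.12 in young libraries on the log2 scale (SD, n = 3 each), a difference of 0.34 without overlap between the groups (exact two-sided permutation p = 0.1, the smallest possible). Gpx4-ps2 by itself had a log2 change of 0.35 ± 0.10 (limma adjusted p = 0.0952). It was looked at after its values were seen.

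Prdx1 has 2 processed pseudogenes in the table, Gm21399 and Gm7204, with 98.3% and 97.5% identity over 597 aligned bases, but here the gene itself held 89.3% to 91.5% of the sum of the 3 in every library. Gm21399 stood at 9.73, 9.96 and 9.78 in the young libraries, at 10.29, 10.17 and 10.05 in the middle-aged libraries and at 10.41, 10.41 and 10.60 in the old libraries. It was called in old against young libraries with a log2 change of 0.65 ± 0.11 (limma adjusted p = 0.0173), and the change of Gm7204 was 0.44 ± 0.10 (limma adjusted p = 0.0531). Summed with both, Prdx1 differed by 0.79 on the log2 scale, with averages of 14.48 ± 0.05 in old and 13.69 ± 0.05 in young libraries (SD, n = 3 each, exact two-sided permutation p = 0.1, the smallest possible). Since Prdx1 held most of this sum and was called by itself, the sum is no separate test of its change. Whether the reads on these copies came from Prdx1 was not tested.

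Neither superoxide dismutase passed the test. Sod2, the mitochondrial manganese enzyme, stood at 10.78, 10.95 and 10.99 in the young libraries, at 11.31, 11.20 and 11.20 in the middle-aged libraries and at 11.40, 11.16 and 11.37 in the old libraries. The young libraries were below all others, and middle-aged and old libraries overlapped. Sod2 had the third largest log2 change of the 10 genes in old against young libraries, 0.40 ± 0.10 (SE, n = 3 each, 95% interval 0.18 to 0.63), which missed the threshold (limma adjusted p = 0.0769). For middle-aged against young libraries it was 0.33 ± 0.10 (limma adjusted p = 0.261).

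Sod1, the cytosolic copper and zinc enzyme, stood at 12.14, 12.23 and 12.18 in the young libraries, at 12.29, 12.21 and 12.20 in the middle-aged libraries and at 12.32, 12.15 and 12.64 in the old libraries. One library, old replicate 3, was well above the rest, and the other 8 lay close together. The log2 change in old against young libraries was 0.19 ± 0.12 (limma adjusted p = 0.459), and without old replicate 3 it was 0.06. Sod2 minus Sod1 within a library averaged -1.06 ± 0.18 in old and -1.27 ± 0.08 in young libraries (SD, n = 3 each), a difference of 0.21 with overlapping groups (exact two-sided permutation p = 0.2). The overlap came from old replicate 3, at -1.27, with the other old libraries at -0.93 and -0.99. In the middle-aged libraries the difference averaged -0.999 ± 0.013, which was 0.27 above the young mean without overlap (exact two-sided permutation p = 0.1, the smallest possible).

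Cat, the peroxisomal catalase, had no change that could be resolved. It stood at 13.31, 13.52 and 13.46 in the young libraries, at 13.53, 13.31 and 13.30 in the middle-aged libraries and at 13.63, 13.46 and 13.26 in the old libraries. All 3 ages overlapped, and the lowest library of the 9 was old replicate 3, in which Prdx1, Prdx2, Gpx1, Gpx4 and Sod1 were at their highest. The log2 change in old against young libraries was 0.02 ± 0.11 (SE, n = 3 each, limma adjusted p = 0.946), with a 95% interval from -0.23 to 0.27 that leaves out the changes measured for Prdx1 and Gpx1.

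The called genes were also set against Cat within each library, as a description with no test, since Prdx1 and Gpx1 were taken because they were called and Cat because its change was the smallest. Gpx1 minus Cat averaged 1.49 ± 0.37 in old and 0.90 ± 0.05 in young libraries on the log2 scale (SD, n = 3 each), a difference of 0.59 without overlap. Prdx1 minus Cat averaged 0.90 ± 0.20 in old and 0.11 ± 0.10 in young libraries, a difference of 0.79 without overlap. The largest of the old differences for both was in replicate 3, the library that stood apart, and the other 2 old libraries were also above all young ones.

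**Figure D3:**
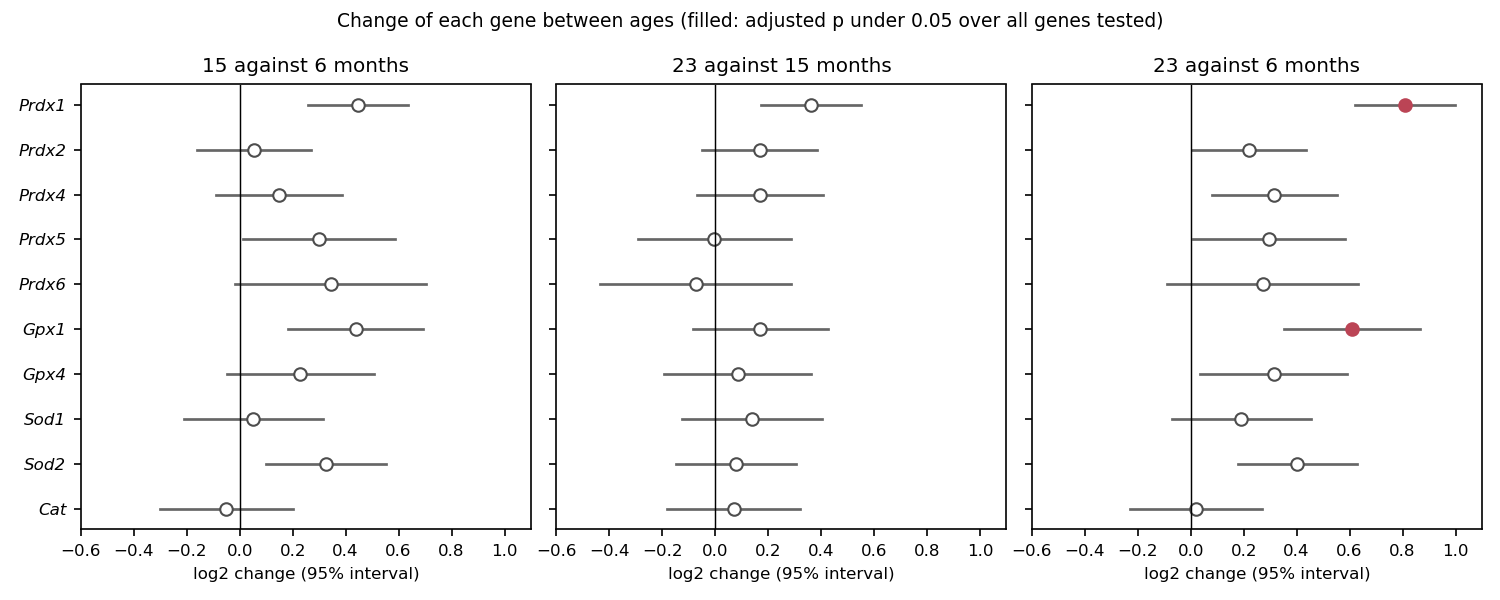
Log2 change of each gene in middle-aged against young, old against middle-aged and old against young libraries, with 95% intervals from limma and filled points for an adjusted p under 0.05 over all 14955 genes. Prdx1 at 0.81 and Gpx1 at 0.61 are the filled points, both in old against young, and Cat lies near 0 in all 3 panels.

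The earlier and the later interval gave no calls among the 10 genes. In middle-aged against young libraries 0 of 10 were called by limma, against 0.114% of all genes; 4 of the 10 had an unadjusted p under 0.05 (Prdx1, Prdx5, Gpx1 and Sod2), against 11.4% of all genes, and the authors' deposited table called 3. Groups did not overlap, with middle-aged higher, for 4 genes (Prdx1, Gpx1, Gpx4 and Sod2), against 11.6% of all genes. The median log2 change was 0.26, against 0.00 over all genes, and 9 of the 10 were positive, with Cat the exception at -0.05, against 49.6% of all genes.

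In old against middle-aged libraries 0 of 10 were called by limma, against 0.174% of all genes; Prdx1 was the one gene of the 10 with an unadjusted p under 0.05, against 10.2% of all genes, and also the one gene called in the authors' deposited table. It was the one gene whose groups did not overlap, against 6.47% of all genes with old higher. The median log2 change was 0.11, and 8 of the 10 were positive, against 48.5% of all genes. For no gene of the 10 did the later change differ from the earlier one, by limma's test of the difference, at an adjusted or an unadjusted p under 0.05. That test called 0 of all 14955 genes after adjustment and 7.9% at an unadjusted p under 0.05.

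The authors' deposited table called more of these genes in old against young libraries, with 5 of 10 higher, against 7.62% of its genes called in either direction and 4.72% called higher. Beside Prdx1 and Gpx1, these were Sod2 with an adjusted p of 0.0116, Prdx5 with 0.0315 and Prdx4 with 0.0325. In middle-aged against young libraries it called Prdx1, Gpx1 and Sod2, against 5.78% of its genes in either direction and 3.26% higher, and in old against middle-aged libraries Prdx1, against 1.32% and 0.859%. Its log2 fold changes were larger than those of the log2 table: for all genes of the 10 but Cat, the change from the log2 values was 0.715 to 0.916 times the authors' deposited table's value in old against young. The values of Gpx4, at an adjusted p of 0.217, and of Prdx2, Prdx6, Sod1 and Cat did not pass there either.

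Levels were compared between genes per kilobase of annotated exon, since longer transcripts give more reads. Over all 9 libraries the order from high to low was Gpx1, Prdx5, Sod1, Prdx1, Cat, Prdx2, Prdx6, Prdx4, Gpx4 and Sod2. Gpx1 led at 14.58 on the log2 scale per kilobase and Sod2 was last at 8.57. Gpx1 was above every other gene in each age group without overlap, and the place of Gpx4 is uncertain because of Gpx4-ps2.

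Several neighbours in this order did not differ beyond their spread. In young libraries Sod1 and Prdx5 overlapped, as did Prdx1 and Cat, and Prdx2 and Prdx6. In middle-aged libraries Prdx5 and Sod1 overlapped, as did Prdx6 and Prdx2. In old libraries Prdx5, Sod1 and Prdx1 overlapped in turn, as did Prdx2 and Prdx6. Prdx1 and Cat no longer overlapped there: Prdx1 averaged 12.93 per kilobase in old and 12.12 in young libraries, while Cat averaged 12.06 in old and 12.04 in young libraries. Using the length of the principal transcript in place of all exons gave the same order.

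**Figure D4:**
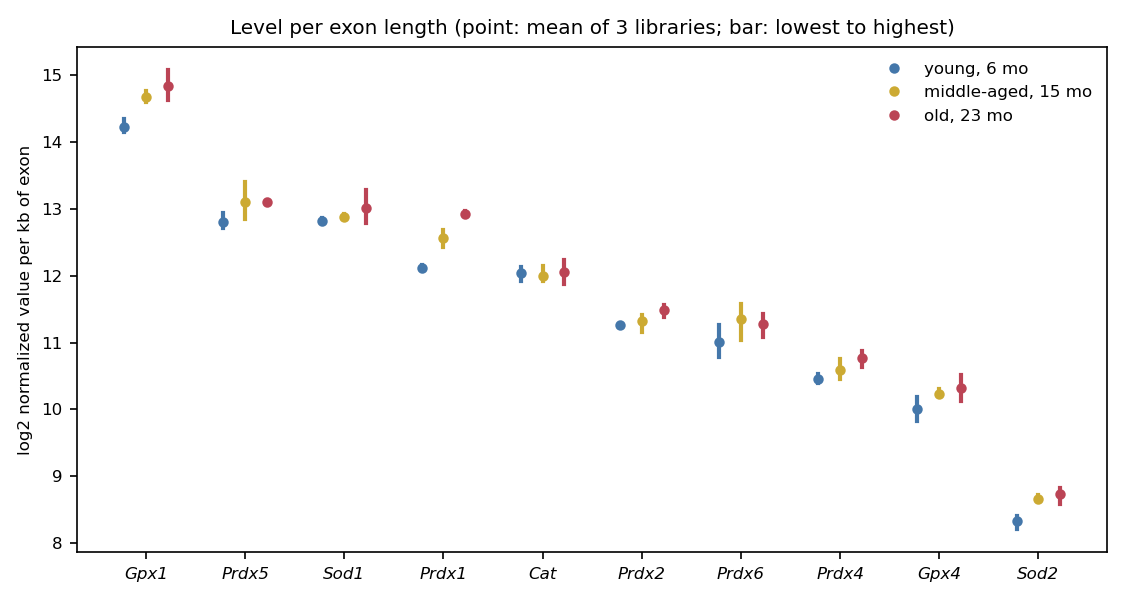
Log2 normalized value per kilobase of exon for each gene, in order of the mean over 9 libraries, with young, middle-aged and old side by side. Points are means of 3 libraries and bars run from the lowest to the highest library. Gpx1 is highest at every age and Sod2 lowest, and Prdx1 separates from Cat in middle-aged and old libraries.

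Around these enzymes, the 102 tested genes of 10 related lists were called at about the rate of all genes. The lists cover thioredoxin, glutathione, NRF2 regulation and targets, NADPH supply, selenocysteine use, copper loading, repair and peroxisome import. In old against young libraries 2 of the 102 were called, Nadk and Selenow, both higher, against 2% of all genes, and the median log2 change of the 102 was 0.04, against -0.01 over all genes. In middle-aged against young and in old against middle-aged libraries 0 of 102 were called by limma, against 0.114% and 0.174% of all genes. At an unadjusted p under 0.05 there were 14 of 102 in middle-aged against young, against 11.4% of all genes, and 10 of 102 in old against middle-aged, against 10.2%. The authors' deposited table called 7 of the listed genes in old against young libraries, against 7.62% of its genes, 7 in middle-aged against young, against 5.78%, and 1 in old against middle-aged, against 1.32%. None of the 10 enzymes is counted in these lists.

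Nadk, the cytosolic kinase that makes NADP from NAD, stood at 13.49, 13.72 and 13.52 in the young libraries, at 13.78, 13.98 and 13.71 in the middle-aged libraries and at 14.26, 14.21 and 13.90 in the old libraries. Its log2 change in old against young libraries was 0.55 ± 0.12 (SE, n = 3 each, limma adjusted p = 0.0463), and old and young libraries did not overlap. Selenow, a small selenoprotein, stood at 12.35, 12.32 and 12.28 in the young libraries, at 12.68, 12.66 and 12.51 in the middle-aged libraries and at 12.97, 12.64 and 13.04 in the old libraries. Its log2 change was 0.56 ± 0.11 (limma adjusted p = 0.0341), again without overlap between old and young libraries. Each call was kept in 2 of the 9 fits that leave out 1 library: for Nadk without middle-aged replicate 3 or old replicate 3, and for Selenow without middle-aged replicate 3 or old replicate 2. It was lost without any other single library, with adjusted p-values up to 0.216 for Nadk and 0.176 for Selenow.

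Txn1, the thioredoxin that recycles most peroxiredoxins, had the smallest p of its list in old against young libraries without passing. It stood at 10.76, 10.83 and 10.78 in the young libraries, at 11.09, 11.44 and 11.02 in the middle-aged libraries and at 11.22, 11.11 and 11.49 in the old libraries. The young libraries were below all others, and the log2 change in old against young libraries was 0.48 ± 0.13 (SE, n = 3 each, limma adjusted p = 0.0952). In the authors' deposited table it was called, with an adjusted p of 0.00250. Of the 12 thioredoxin system genes tested, 0 were called by limma, against 2% of all genes, 3 had an unadjusted p under 0.05, against 16.8% of all genes, and their median change was 0.06.

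The glutathione and NRF2 lists gave no call by limma in old against young libraries, with 3 genes of each at an unadjusted p under 0.05, of 13 and of 14 tested, against 16.8% of all genes. Slc7a11, the cystine carrier that feeds glutathione synthesis, had a log2 change of 0.44 ± 0.14 (limma adjusted p = 0.145) and the smallest p of the 13 glutathione genes tested, whose median was 0.05. The authors' deposited table called Slc7a11 in old against young libraries, with an adjusted p of 0.0207. Among 14 NRF2 regulators and targets the median was 0.12, and the smallest p belonged to the exporter Abcc1, at -0.26 ± 0.11 (limma adjusted p = 0.261). Of these 14, 9 had a positive change, and the largest was that of Hmox1, at 0.35 ± 0.15 (limma adjusted p = 0.277). The glutathione S-transferases had a median of 0.00 over 13 genes, with Gstt2 at -0.22 ± 0.10 (limma adjusted p = 0.291).

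Prdx3, the mitochondrial peroxiredoxin, had the smallest p among the 4 other family members tested, with a log2 change of 0.19 ± 0.09 in old against young libraries (limma adjusted p = 0.335). Atox1, which hands copper to cellular pumps, had the smallest p of the copper list at 0.40 ± 0.11 (limma adjusted p = 0.101). Msrb3, a methionine sulfoxide reductase, was at 0.19 ± 0.07 (limma adjusted p = 0.215). The peroxisome list, the compartment of catalase, had the lowest median, -0.13 over 11 genes, and 0 of them were called by limma, with 2 at an unadjusted p under 0.05, against 16.8% of all genes, and 1 called in the authors' deposited table, against 7.62% of its genes. Prdx3, Atox1 and Msrb3 did not pass limma's test either. In the authors' deposited table Atox1 was called in old against young libraries, with an adjusted p of 0.0371.

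**Figure D5:**
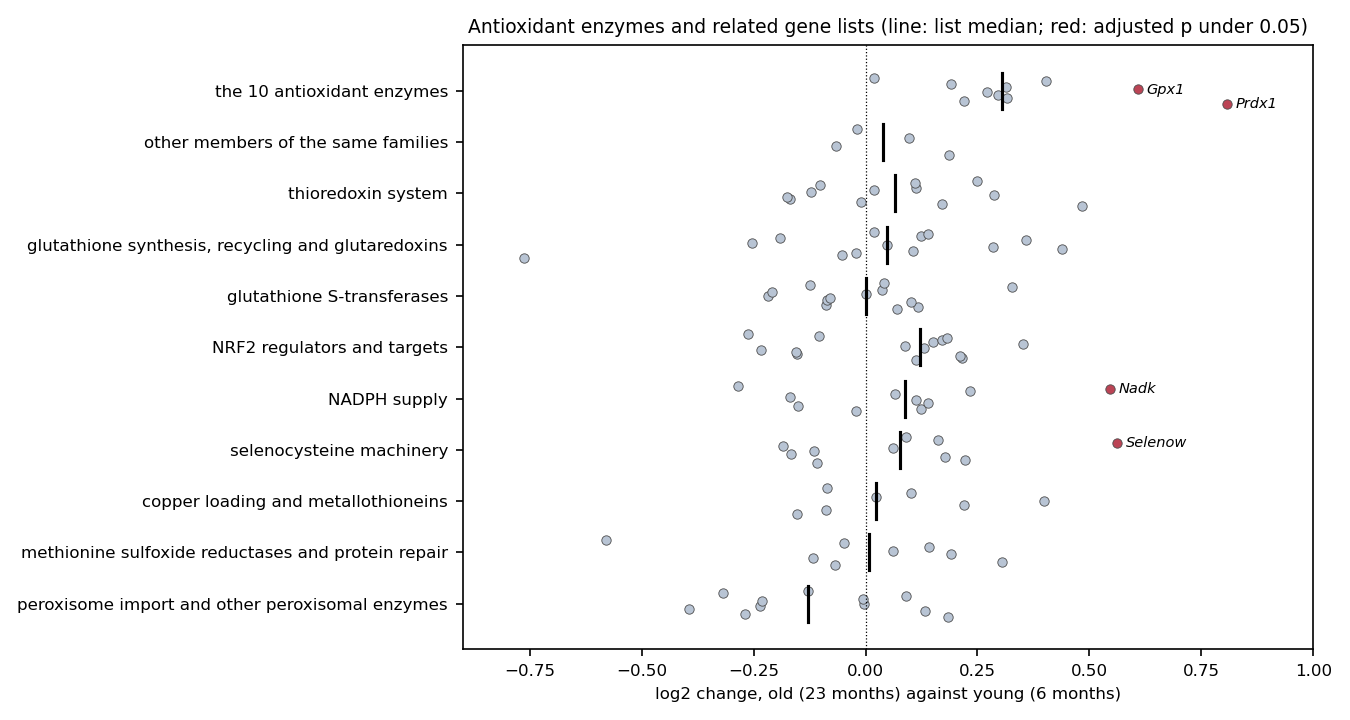
Log2 change in old against young libraries of the 10 enzymes and of the genes of each related list. Points are genes, black lines are list medians and red points have an adjusted p under 0.05 over all genes tested. The medians of the related lists lie between -0.13 and 0.12, the median of the 10 enzymes at 0.30, and the named red points are Gpx1, Prdx1, Nadk and Selenow.

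The genes whose profile over the 9 libraries was nearest to that of each called enzyme were ranked by the root mean square difference of their log2 values after each gene's own mean was taken off. For Prdx1 these were Cd63, a tetraspanin of late endosomes and lysosomes, at 0.058, Gas2l3 at 0.068 and AW112010 at 0.069, and 9 genes were under 0.1. Cd63 stood at 14.00, 14.05 and 13.98 in the young libraries, at 14.56, 14.39 and 14.22 in the middle-aged libraries and at 14.94, 14.71 and 14.85 in the old libraries. As for Prdx1, its 3 ages did not overlap. For Gpx1 the nearest were Gm9844 at 0.044, Rps18-ps3 at 0.069 and C1qc, a chain of complement component C1q, at 0.070, and 35 genes were under 0.1. Over all genes the median of this difference was 0.36 from Prdx1 and 0.31 from Gpx1, and likeness over 9 libraries is a description that also carries what these libraries share.

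Marker genes of other cells also moved between ages. In old against young libraries 3 of 12 monocyte markers were called higher (Plac8, Ms4a4c and Fn1), against 1.7% of all genes called higher and 2% called either way, 2 of 12 border macrophage markers were called lower (Stab1 and Mgl2) and 0 of 14 neutrophil markers were called, with 0 also at an unadjusted p under 0.05 and in the authors' deposited table. At an unadjusted p under 0.05 there were 4 of the monocyte and 10 of the border macrophage markers, against 16.8% of all genes. The authors' deposited table called 3 and 7 of them, against 7.62% of its genes. The median log2 change was 0.37 over the monocyte, -0.46 over the border macrophage and -0.03 over the neutrophil markers. In middle-aged against young libraries, where none of these was called by limma, the monocyte markers had a median of 0.49, the border macrophage markers of -0.32 and the neutrophil markers of 0.50, with 6, 7 and 4 genes at an unadjusted p under 0.05, against 11.4% of all genes. For old against middle-aged libraries the medians were -0.11 for monocyte, -0.13 for border macrophage and -0.65 for neutrophil markers. Of the 14 neutrophil markers, 1 had a positive change, against 48.5% of all genes. None of these markers was called by limma, and 2, 1 and 2 genes had an unadjusted p under 0.05, against 10.2% of all genes. In old against young libraries 1 of 9 oligodendrocyte lineage markers was called higher, Cspg4, with a list median of 0.05 and 7 positive changes. Among 12 endothelial and pericyte markers it was Flt1, with a median of -0.01 and 6 positive changes, and among 11 markers of T, B and NK cells it was Cd8a, with a median of 0.25 and 10 positive changes. At an unadjusted p under 0.05 there were 2 oligodendrocyte lineage, 2 endothelial and pericyte and 8 T, B and NK cell markers, against 16.8% of all genes. Of the 15 microglial markers, C1qa and Tyrobp were called higher and Fcrls and Siglech lower, 11 had an unadjusted p under 0.05, against 16.8% of all genes, and the median log2 change was -0.19. The sum of the neutrophil markers was highest in middle-aged replicate 2, at 2.00%, and lowest in old replicate 1, at 0.509%. The part of changed cell mixtures in the values of the 10 enzymes was not tested.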

How the data were processed

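RNA of sorted microglia was made into libraries with a kit for very low input, per the labels' protocols. The submitters' processing notes name CASAVA, cutadapt 1.13, STAR 2.5.3, DESeq2 1.16.1 and mm10, with no roles. The authors' deposited expression table holds values on a log2 scale, from -2.14 to 20.05. The sources used here do not state the transformation, the read counter or the sequencing depth, so no counting interval can be given. The authors' deposited comparison tables hold, per the file headers, a mean normalized count (a signal per gene), a log2 fold change, its standard error and a test score, and p-values; the sign of the fold change, older minus younger, was checked against the log2 values.

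The log2 values were used as deposited. Genes at or above log2 of 10, 3.32, in at least 3 libraries were tested with limma 3.58.1 in R 4.3.3, in 1 model over the 3 ages with a variance trend, two-sided, with Benjamini-Hochberg adjustment over all genes at 0.05. The script was tested on simulated data. Fold changes on this table may understate those of counts. The printed permutation p-values come from exact tests of differences of 2 genes within libraries and of sums of a gene with its near-identical copies. Near-identical copies were searched with blastn 2.17.0 among GENCODE transcripts (at least 90% identity over 300 bases); exon lengths are GENCODE on GRCm38. The enzymes and gene lists were chosen with earlier results of these data known. All 10 enzymes are described; of each related list, at most 3 called genes with the smallest p are named, or the gene with the smallest p where none was called; 1 such gene is not reported here. Alternatives were other filters, scalings, variance models, library weights, a replicate block, the ages in pairs, and fits without single libraries.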

Additional observations from a re-analysis of the deposited data

How the results depend on the processing

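The call of Prdx1 in old against young held in all 9 fits without 1 library and in all 11 other settings, with log2 changes of 0.79 to 0.83. The number of the 10 enzymes called in old against young was 2; it was 5 with library weights, 1 with the 2 ages alone and 1 without old replicate 3 and middle-aged replicate 2, a setting chosen after seeing the data. Leaving out 1 library gave 1 to 2. In middle-aged against young the count was 0, and 2 with library weights. In the F test over the 3 ages it was 1, 4 with library weights, and 1 to 2 without 1 library. In old against middle-aged and for the difference between the intervals it was 0 in every setting. The causes were not tested.

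With a replicate block the count in old against young was 1, without Gpx1 (adjusted p = 0.0548). The 9 correlations of same-numbered libraries, after group means were taken off, ran from -0.24 to 0.23, and 3 were over 0.1. In 5 of the 9 the same-numbered library was the best match among the 3 of the other age. With 3 libraries per age these values cannot settle whether the replicate numbers pair the libraries.

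No called value changed sign. Among uncalled changes in old against middle-aged libraries, Prdx5 was 0.00866 with quantile normalization and 0.14 without both libraries, and -0.13 to 0.15 without 1 library; Sod1 was -0.00937 without both libraries. Without 1 library, Prdx6 ranged from -0.231 to 0.0425, Gpx4 from -0.0146 to 0.180 and Cat from -0.0194 to 0.164, and Cat in old against young from -0.0694 to 0.114. The count of all genes called in old against young, 299, was 170 without a filter on low values, 1609 with library weights, 185 with the replicate block and 84 to 322 without 1 library. With 3 pools per age, changes under about the intervals printed cannot be resolved.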
